A study of Rattus norvegicus with 90 samples.

Results

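The comparison described here sets 9 brain microglia libraries from rat pups that received IL-1beta and then mesenchymal stromal cells of human umbilical cord (HuMSCs) by the intravenous route against 3 libraries from uninjured pups, all collected at P12. These 12 libraries were chosen by their titles, from 15 libraries of the same experiment and 90 in the whole series, and all genes were considered. The series tested HuMSCs given at 3 ages, by 2 routes and at 3 doses, and asked which treatment protocol moves the microglial transcriptome after a neonatal inflammatory insult. All animals were male Wistar Han rats. The treated groups, called HuMSC20, HuMSC50 and HuMSC125, had received recombinant mouse IL-1beta at 20 µg/kg per intraperitoneal injection between P1 and P5 and then 20M, 50M or 125M cells/kg at P10, with 3 libraries per dose. The injured group (3 libraries) had the same IL-1beta and a PBS sham in place of the cells, and the control group (3 libraries) had PBS in place of both. The injured libraries entered the statistical fit to help estimate the spread, and their values are given beside the others. Treated and control pups therefore differ in IL-1beta and in cells together, and a difference between them cannot be assigned to either. The labels do not say whether a replicate is 1 pup or a pool, so p-values measure the spread between these libraries, which may be partly technical.

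Microglia are the resident macrophages of the brain. They carry receptors for IL-1 family cytokines, and sustained systemic IL-1beta in newborn rodents is used as a model of the inflammation to which preterm infants are exposed. Mesenchymal stromal cells release soluble factors that act on macrophages, and most cells given intravenously are held up in the lung. Cells were collected 48 h after the HuMSCs or sham with magnetic beads against CD11b/c, a surface antigen shared by microglia, other macrophages, monocytes and neutrophils, so the libraries can hold transcripts of other cells that came along.

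The deposited counts summed to 16.4M to 24.0M per treated library, 17.4M to 42.4M per injured library and 13.3M to 19.7M per control library. As a check of the labelled cell type, the 23 tested genes of the homeostatic microglia list summed to 40694 to 48943 counts per 1M counts (CPM) in the treated libraries, 43459.6 to 44069 CPM in the injured libraries and 45088 to 48902 CPM in the control libraries. The same sum over 13 astrocyte markers was 712 to 1341 CPM in treated, 1130.3 to 1331 CPM in injured and 1203 to 1239.9 CPM in control libraries. Control replicates 2 and 3 stood apart from the other libraries, replicate 3 on the first principal component (20.7% of the variance) and replicate 2 on the second (15.3%). Transcripts encoded by mitochondrial DNA took 4.62% to 6.29% of the counts in treated, 5.11% to 5.73% in injured and 4.39% to 5.07% in control libraries. The part of that share in the results was not tested.

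Microglial libraries of HuMSC-treated pups differed from uninjured controls in 346 genes, most of them by less than 1 log2 unit. Astrocyte-enriched genes led by Mlc1 and Gpr37l1, the inhibitory receptor genes Cd5 and Lag3, and Dpp6 were lower in treated libraries. The IL-1 receptor antagonist Il1rn, the TGF-beta-related genes Skil and Klf10, the endoplasmic reticulum chaperone genes Hspa5, Hyou1 and Hsp90b1 and the sterol gene Insig1 were higher. Of 13874 genes tested, edgeR's quasi-likelihood test with Benjamini-Hochberg adjustment (adjusted p under 0.05) called 346 (2.49%), with 163 higher (1.17%) and 183 lower (1.32%) in treated libraries, and 2955 genes had an unadjusted p under 0.05. The median log2 fold change was 0.45 over the called rises, -0.52 over the called falls and -0.02 over all genes tested. A change of at least 1 log2 unit was found in 11 of the rises and 22 of the falls. In 138 of the 163 rises and 123 of the 183 falls, all 9 treated libraries lay on one side of all 3 control libraries; of all tested genes 736 (5.30%) had such a gap, with treated higher in 401 (2.89%) and lower in 335 (2.41%).

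**Figure D1:**
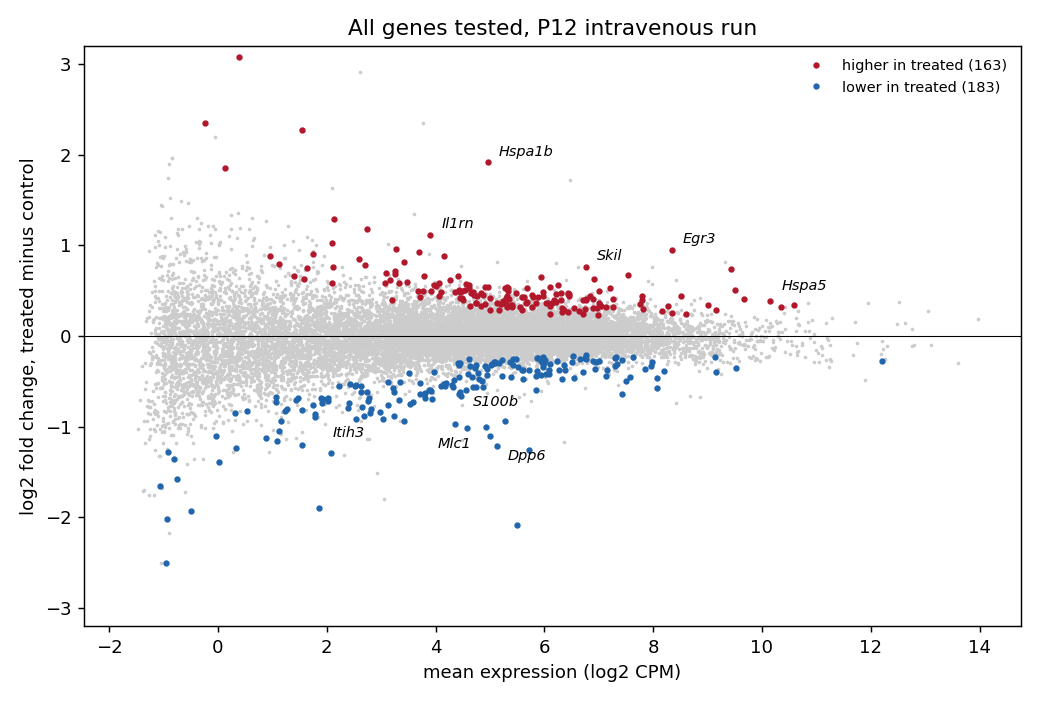
Each point is 1 of 13874 genes tested, with its mean expression (log2 CPM) on the horizontal axis and its log2 fold change, treated minus control, on the vertical axis, and coloured points have an adjusted p under 0.05. The 163 red points are higher and the 183 blue points lower in treated libraries, most of them within 1 log2 unit of 0, and 5 genes lie outside the plotted range of ±3.2.

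The calls leaned on single libraries, control replicate 2 above all. Without it edgeR called 26 genes in place of 346, and without control replicate 1 it called 749. Leaving out HuMSC50 replicate 3 gave 108 calls, HuMSC125 replicate 2 gave 169, HuMSC125 replicate 3 gave 191, HuMSC20 replicate 1 gave 212 and HuMSC50 replicate 1 gave 224. Of 69 called genes followed individually, 13 passed the threshold whichever of the 12 libraries was left out. These were Mlc1, Gpr37l1, Itih3, Cd5, Lag3, Swap70 and the unannotated AC134224.3 among the falls, and Skil, Klf10, Spsb1, Spns2, Cdc6 and Hyou1 among the rises. All of the other 56 missed the threshold without control replicate 2, and the adjusted p in that fit is given with the genes described. The gene span also differed between the directions: the median annotated span was 42.3 kb over the rises, 12.6 kb over the falls and 20.9 kb over all genes tested. The part of span in the calls was not tested.

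Astrocyte-enriched transcripts were the clearest group among the falls. Mlc1, which encodes a membrane protein of astrocyte end-feet, had the smallest p of all genes. It was between 13.9 and 16.98 CPM (median 15.5) in the treated libraries, 23.9, 29.98 and 26.2 CPM in the injured libraries and 30.2, 30.2 and 29.7 CPM in the control libraries. The treated libraries lay below every library of both other groups, and of the injured ones 1 was at the control level and 2 below it. In bulk libraries of this kind, fewer cells of a type and less RNA per cell cannot be told apart. The log2 fold change of Mlc1, treated minus control, was -0.97 ± 0.08 (SE), with an adjusted p of 4.81e-05. It was -0.97 for HuMSC20, -1.02 for HuMSC50 and -0.92 for HuMSC125, 3 contrasts that share the same controls. Gpr37l1, an astrocyte-enriched G protein-coupled receptor gene, was between 5.89 and 9.20 CPM (median 7.06) in the treated libraries, 9.85, 11.98 and 11.01 CPM in the injured libraries and 12.7, 14.3 and 13.5 CPM in the control libraries. Its groups were ordered in the same way, with no treated library reaching the lowest injured one, and its log2 fold change was -0.88 ± 0.11 (SE) (adjusted p = 0.00186). Itih3, which encodes a heavy chain of the hyaluronan-binding inter-alpha-trypsin inhibitors, was between 4.58 and 7.62 CPM (median 6.39) in the treated libraries, 11.5, 10.3 and 8.71 CPM in the injured libraries and 12.5, 11.1 and 12.1 CPM in the control libraries, again without overlap. Its log2 fold change was -0.92 ± 0.14 (SE) (adjusted p = 0.00724).

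Of the 13 astrocyte markers followed as a list, 5 were called lower, beside 1.32% of all genes tested, and none higher. The list median log2 fold change was -0.43 beside -0.02 over all genes tested. S100b, a calcium-binding protein gene of astrocytes, was between 15.5 and 20.7 CPM (median 17.3) in the treated libraries, 24.9, 30.5 and 26.1 CPM in the injured libraries and 26.05, 29.1 and 27.6 CPM in the control libraries. No treated library reached the lowest of the other 6, and the log2 fold change was -0.62 ± 0.10 (SE) (adjusted p = 0.00792). The other called members were the brain aldolase gene Aldoc (-0.54), the folate enzyme gene Aldh1l1 (-0.90), the growth factor receptor gene Fgfr3 (-0.72) and the intermediate filament gene Gfap (-0.94). The water channel gene Aqp4 (-0.60, adjusted p = 0.0652) missed the threshold. The glutamate transporter genes Slc1a2 and Slc1a3 had log2 fold changes of -0.36 and -0.29, the gap junction gene Gja1 -0.12 and the transporter gene Slco1c1 0.15, and none of these was called. The members were uneven, from the fall of Gfap to the positive value of Slco1c1. All 5 list calls were lost without control replicate 2, where the adjusted p was 0.0822 for S100b, 0.145 for Aldoc, 0.208 for Aldh1l1, 0.198 for Fgfr3 and 0.24 for Gfap. Aldh1l1 missed the threshold in 4 of the 12 fits that each left out 1 library, Fgfr3 in 3 and Gfap in 8.

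The mean level of the 13 astrocyte markers was 3.84 to 4.37 log2 CPM in treated, 4.47 to 4.73 in injured and 4.26 to 4.71 in control libraries. The injured libraries all lay above the treated ones, and of the controls only replicate 3 overlapped them. The 13 endothelial markers averaged 5.74 to 6.55 log2 CPM in treated, 6.41 to 6.63 in injured and 5.52 to 6.53 in control libraries, with control replicate 3 the lowest of all 15 libraries. Mural cell markers ranged over 3.81 to 4.47 log2 CPM in treated, 4.19 to 4.80 in injured and 3.69 to 4.73 in control libraries. Fibroblast markers ranged over 3.90 to 4.52 in treated, 4.32 to 4.97 in injured and 3.72 to 4.81 in control libraries. edgeR called no endothelial, mural or fibroblast marker (2 of 13, 2 of 12 and 1 of 12 at an unadjusted p under 0.05, and 0, 1 and 0 calls by DESeq2), although all 12 tested mural markers had a negative log2 fold change (median -0.21). Treated minus injured, the list median was -0.49 for astrocyte, -0.35 for endothelial, -0.41 for mural and -0.47 for fibroblast markers, all 4 below 0. The part of carried-over cells in the astrocyte-enriched falls was not tested.

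**Figure D2:**
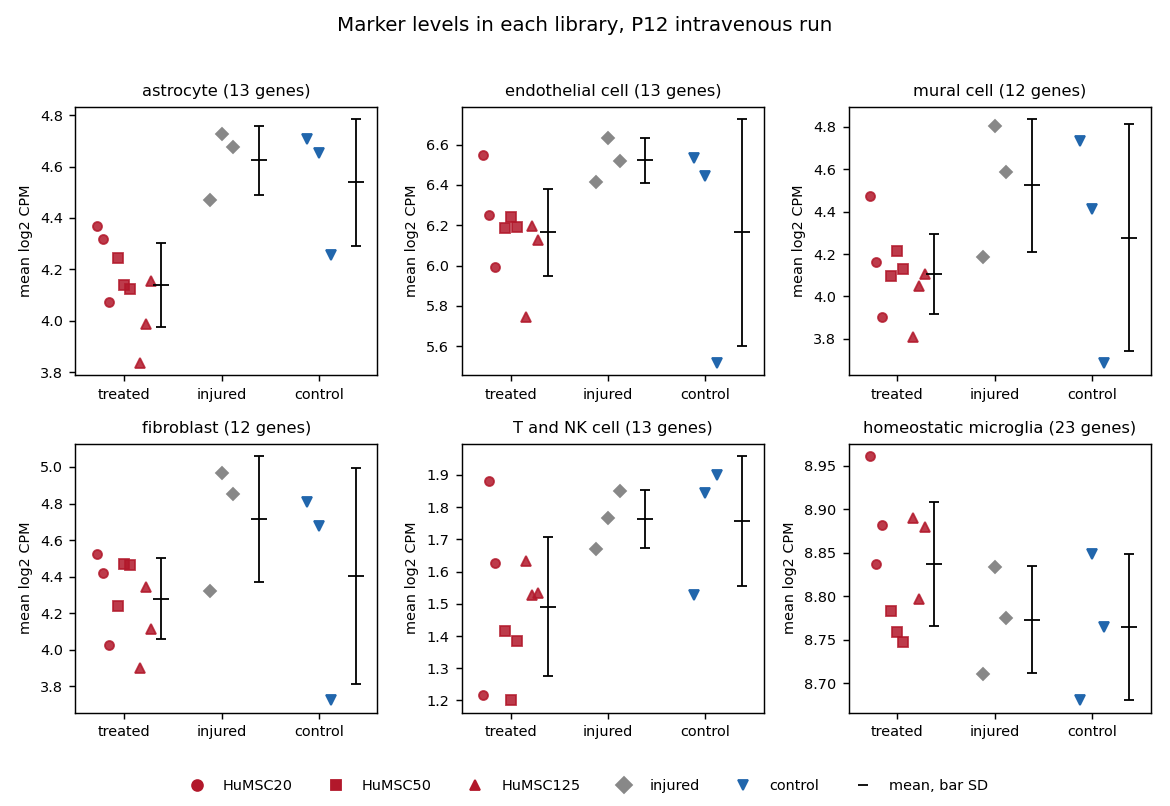
Mean log2 CPM over the tested genes of 6 marker lists in each library, with treated libraries at left (the symbol gives the dose), injured in the middle and control at right, and the group mean with its SD as a bar beside the points. Astrocyte markers lie at 3.84 to 4.37 in treated libraries and at 4.47 to 4.73 in injured libraries, while control replicate 3 is the lowest of all libraries for endothelial, mural and fibroblast markers.

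The 15 largest falls among annotated genes without overlap of treated and control libraries include others that astrocytes are known to express, although they were not in the marker list. Slc7a10, a neutral amino acid transporter gene, was between 1.24 and 1.93 CPM (median 1.60) in the treated libraries, 2.81, 3.32 and 2.62 CPM in the injured libraries and 2.77, 3.18 and 3.14 CPM in the control libraries, without overlap. Its log2 fold change was -0.94 ± 0.17 (SE) (adjusted p = 0.016). Tnc, which encodes the matrix glycoprotein tenascin C, was between 3.41 and 7.05 CPM (median 5.14) in the treated libraries, 8.21, 10.5 and 9.57 CPM in the injured libraries and 10.7, 9.58 and 7.46 CPM in the control libraries. Its treated libraries lay below all others, and its log2 fold change was -0.85 ± 0.16 (SE) (adjusted p = 0.0174). Agt, the angiotensinogen gene, had a log2 fold change of -0.91 ± 0.17 (SE) and Fgfbp3, a fibroblast growth factor binding protein gene, of -0.82 ± 0.17 (SE). Without control replicate 2 the adjusted p was 0.111 for Slc7a10, 0.117 for Tnc, 0.125 for Agt and 0.199 for Fgfbp3. Agt also missed the threshold without control replicate 3 (adjusted p = 0.052), and Fgfbp3 in 4 of the 12 fits.

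The first of those 15 falls was Dpp6, which encodes an auxiliary subunit of A-type potassium channels. It was between 11.4 and 38.7 CPM (median 22.7) in the treated libraries, 50.9, 32.7 and 37.9 CPM in the injured libraries and 56.01, 60.3 and 55.1 CPM in the control libraries. Treated and control libraries did not overlap, but the injured libraries overlapped the treated ones. The log2 fold change was -1.21 ± 0.18 (SE) (adjusted p = 0.00724, and 0.0501 without control replicate 2). By dose it was -0.87 for HuMSC20, -0.90 for HuMSC50 and -1.87 for HuMSC125, of which HuMSC125 was called (adjusted p = 0.01). Grem1, a secreted antagonist of bone morphogenetic proteins, was between 4.31 and 7.70 CPM (median 5.44) in the treated libraries, 4.73, 4.95 and 4.55 CPM in the injured libraries and 12.8, 9.89 and 8.24 CPM in the control libraries. Its injured libraries were as low as the treated ones, and its log2 fold change was -0.89 ± 0.17 (SE) (adjusted p = 0.0177, and 0.0979 without control replicate 2). Cadm3, a cell adhesion gene, fell by 0.80 on the log2 scale, the glutathione transferase gene Gstm4 by 1.01, the histone chaperone gene Nap1l3 by 0.86 and the F-box gene Fbxo2 by 1.15. Without control replicate 2 their adjusted p values were 0.171 (Cadm3), 0.0786 (Gstm4), 0.106 (Nap1l3) and 0.227 (Fbxo2). Gstm4 missed the threshold in 2, Nap1l3 in 5 and Fbxo2 in 6 of the 12 fits.

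Swap70, which encodes a signalling protein of B cells and myeloid cells, fell by a small and even amount. It was between 142 and 157 CPM (median 146) in the treated libraries, 166, 172 and 149 CPM in the injured libraries and 186, 179 and 193 CPM in the control libraries. All treated libraries lay below all controls, and the log2 fold change was -0.33 ± 0.05 (SE) (adjusted p = 0.00724). AC134224.3, an identifier with no annotated function here, had the largest fall of the 13 genes that passed whichever library was left out. It was between 12.4 and 38.8 CPM (median 16.2) in the treated libraries, 120.2, 75.4 and 69.9 CPM in the injured libraries and 69.2, 102 and 65.4 CPM in the control libraries. The highest treated library lay below the lowest injured and control libraries, and the log2 fold change was -2.09 ± 0.24 (SE) (adjusted p = 0.00185).

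Cd5 and Lag3, which encode inhibitory receptors best known from T cells, were lower in treated and injured libraries alike. Cd5 was between 9.90 and 12.3 CPM (median 11.01) in the treated libraries, 8.27, 10.3 and 7.80 CPM in the injured libraries and 17.2, 17.9 and 19.6 CPM in the control libraries. Each of the 12 libraries from IL-1beta-exposed pups lay below all 3 controls. The log2 fold change was -0.73 ± 0.10 (SE) for treated minus control (adjusted p = 0.00349) and -1.05 ± 0.12 (SE) for injured minus control (adjusted p = 0.00396). Lag3 was between 5.47 and 7.32 CPM (median 5.83) in the treated libraries, 5.96, 5.17 and 6.08 CPM in the injured libraries and 10.1, 11.6 and 10.3 CPM in the control libraries, with the same separation. Its log2 fold change was -0.81 ± 0.11 (SE) for treated minus control (adjusted p = 0.00349) and -0.89 ± 0.13 (SE) for injured minus control (adjusted p = 0.0456). The injured minus control call of Lag3 was lost in 7 of 11 alternatives, among them those without any 1 of the injured libraries and those without control replicate 2 or 3 (highest adjusted p 0.213), and that of Cd5 was lost without injured replicate 1 or 3 (highest 0.0666). In treated minus control they were the 2 genes called of 13 tested in the T and NK cell list, beside 1.32% of all genes called lower. No member was called higher. The T cell receptor complex genes Cd3d, Cd3e and Cd3g did not reach the counts needed for testing, with at most 14 counts (Cd3d), 13 counts (Cd3e) and 3 counts (Cd3g) in any of the 15 libraries. The mean level of the 13 tested T and NK markers was 1.20 to 1.88 log2 CPM in treated, 1.67 to 1.85 in injured and 1.53 to 1.90 in control libraries, with overlap between all groups.

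**Figure D3:**
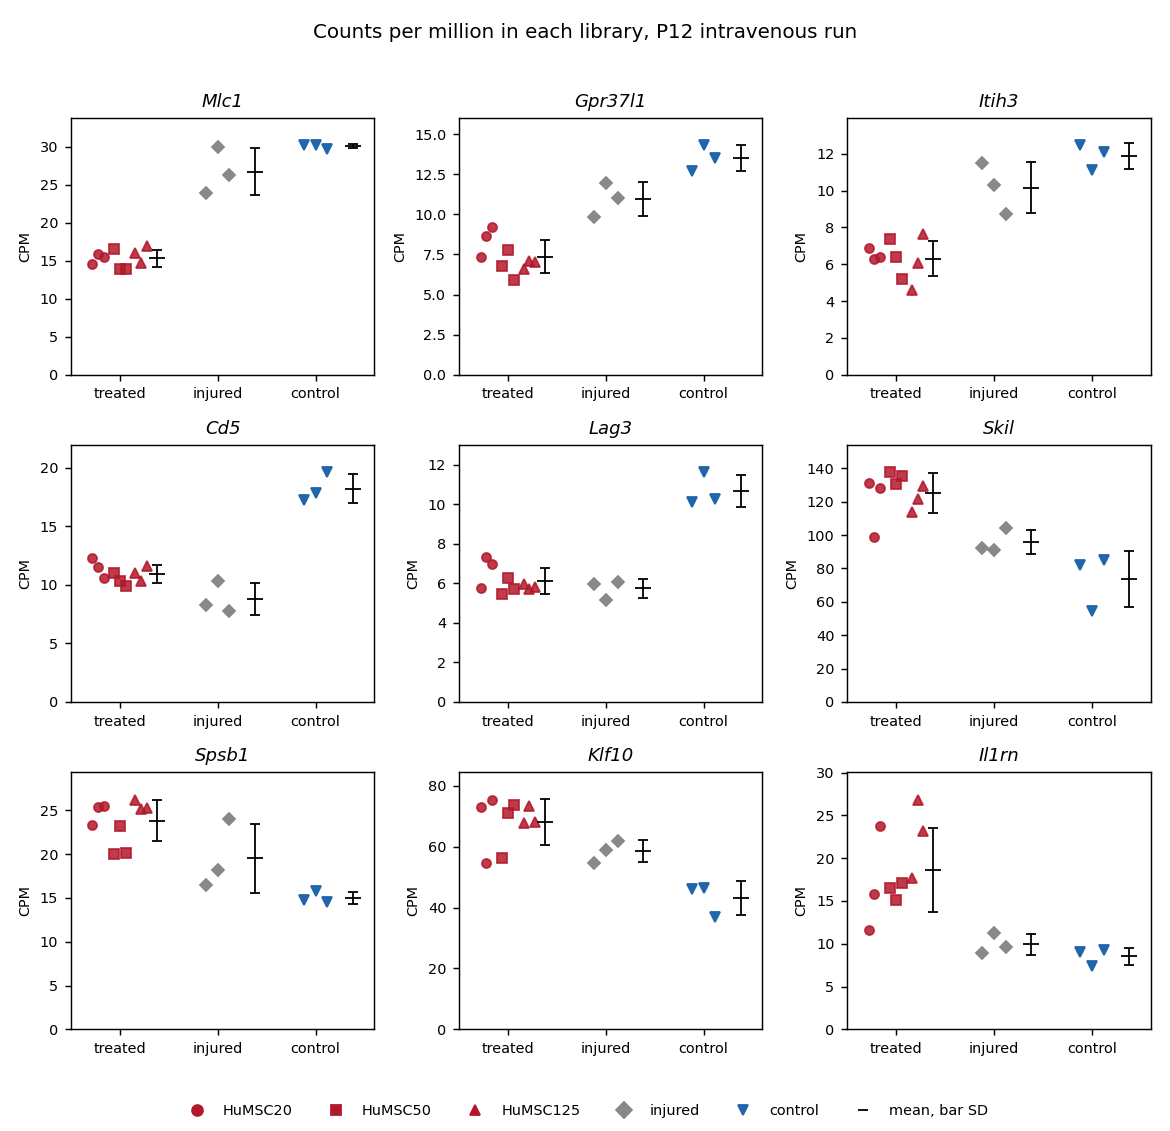
CPM of 9 genes in each library, with treated libraries at left (the symbol gives the dose), injured in the middle and control at right, and the group mean with its SD as a bar beside the points. Treated libraries lie below all controls for Mlc1, Gpr37l1, Itih3, Cd5 and Lag3 and above all controls for Skil, Spsb1, Klf10 and Il1rn, and injured libraries lie above all treated ones for Mlc1 and below them for Il1rn, but below all controls with the treated ones for Cd5 and Lag3.

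Among annotated genes with no overlap of treated and control libraries and a mean of at least 1 log2 CPM, the largest rise was that of the heat shock gene Hspa1b, described below. The next was that of Il1rn, the gene of the secreted IL-1 receptor antagonist, which occupies the IL-1 receptor without signalling. It was between 11.6 and 26.8 CPM (median 17.04) in the treated libraries, 8.95, 11.3 and 9.57 CPM in the injured libraries and 8.98, 7.42 and 9.26 CPM in the control libraries. The lowest treated library lay just above the highest injured one, and injured and control libraries lay close together. The log2 fold change, treated minus control, was 1.11 ± 0.19 (SE) (adjusted p = 0.0104, and 0.0844 without control replicate 2). By dose it was 1.00 for HuMSC20, 0.93 for HuMSC50 and 1.40 for HuMSC125. Against the injured group it was 0.89 ± 0.18 (SE), which missed the threshold (adjusted p = 0.0972). Il1rn was the only one of 13 tested repair or anti-inflammatory markers to be called, beside 1.17% of all genes called higher, and the list median was -0.09. Il1b itself was between 193 and 353 CPM (median 249) in the treated libraries, 154, 244 and 147 CPM in the injured libraries and 309, 189 and 148 CPM in the control libraries, with overlap of all groups (log2 fold change 0.24 ± 0.23 (SE), adjusted p = 0.563).

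Skil, Klf10 and Spsb1 rose and kept their calls whichever library was left out. Skil encodes SnoN, a repressor of SMAD transcription factors that TGF-beta signalling itself induces. It was between 98.9 and 138 CPM (median 129) in the treated libraries, 92.3, 90.9 and 104 CPM in the injured libraries and 82.4, 54.6 and 84.8 CPM in the control libraries. The treated libraries lay above all controls, the highest injured library reached the lower end of their range, and the log2 fold change was 0.76 ± 0.12 (SE) (adjusted p = 0.00724). Klf10, first described as a TGF-beta-inducible early gene in human cells, was between 54.6 and 75.5 CPM (median 71.01) in the treated libraries, 54.7, 59.1 and 61.8 CPM in the injured libraries and 46.2, 46.5 and 36.8 CPM in the control libraries, with a log2 fold change of 0.66 ± 0.11 (SE) (adjusted p = 0.00954). All injured libraries lay above all controls for both genes and overlapped the treated range. Spsb1, whose product targets inducible nitric oxide synthase for degradation, was between 20.00 and 26.2 CPM (median 25.2) in the treated libraries, 16.5, 18.2 and 23.97 CPM in the injured libraries and 14.7, 15.7 and 14.5 CPM in the control libraries. Again injured libraries were all above the controls, and the log2 fold change was 0.66 ± 0.10 (SE) (adjusted p = 0.00724). In the list of 26 TGF-beta and SMAD genes, Skil and the receptor gene Tgfbr1 were called higher, beside 1.17% of all genes tested. None was called lower, and the list median was -0.01. Tgfbr1 was between 715 and 1015 CPM (median 829.6) in the treated libraries, 632, 473 and 727 CPM in the injured libraries and 507, 571 and 644 CPM in the control libraries (log2 fold change 0.51 ± 0.13 (SE), adjusted p = 0.0485), and it missed the threshold in 10 of the 12 fits that left out 1 library.

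Egr3, an activity-induced transcription factor gene, was between 325 and 488 CPM (median 388) in the treated libraries, 209, 283 and 285 CPM in the injured libraries and 284, 176 and 139 CPM in the control libraries. Treated libraries were above all others, control replicate 1 was as high as the highest injured library, and the log2 fold change was 0.95 ± 0.17 (SE) (adjusted p = 0.0161, and 0.108 without control replicate 2). It was 1 of 2 members called higher among 31 immediate early and dissociation response genes, beside 1.17% of all genes tested. The list median was 0.16, and no member was called lower. The other was Hspa1b, an inducible heat shock 70 gene whose row in the table also carries the symbol Hspa1a, its near-identical neighbour, so that counts may be split between the copies. Hspa1b was between 22.5 and 75.9 CPM (median 33.6) in the treated libraries, 25.8, 11.7 and 22.04 CPM in the injured libraries and 10.7, 10.9 and 9.81 CPM in the control libraries (log2 fold change 1.92 ± 0.31 (SE), adjusted p = 0.00792, and 0.061 without control replicate 2). The mean level of the 31 genes was 6.92 to 7.39 log2 CPM in treated, 6.82 to 7.20 in injured and 6.59 to 7.12 in control libraries. The HuMSC50 libraries were the lowest treated ones, at 6.92, 7.10 and 6.97. By dose against control, the list median was 0.33 for HuMSC20, -0.12 for HuMSC50 and 0.23 for HuMSC125. At HuMSC50 edgeR called 2 members higher and 1 lower, beside 1.09% and 1.69% of all genes. In treated minus control DESeq2 called 8 members higher and 1 lower. Fosb had a log2 fold change of 0.61 ± 0.16 (SE) (adjusted p = 0.0535) and Egr1 of 0.36 ± 0.10 (SE) (adjusted p = 0.0622). These genes also respond to tissue dissociation, and the part of that response in the other rises was not tested.

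The other large rises were spread over signalling, surface and nuclear genes. Arhgap26, a GTPase-activating protein gene, was between 11.2 and 16.02 CPM (median 14.7) in the treated libraries, 13.2, 12.4 and 13.01 CPM in the injured libraries and 10.1, 4.84 and 7.93 CPM in the control libraries, so that injured libraries overlapped the treated ones (log2 fold change 0.92 ± 0.17 (SE), adjusted p = 0.016). Tlr1, a receptor gene for bacterial lipopeptides, was between 9.93 and 14.8 CPM (median 11.1) in the treated libraries, 10.6, 9.17 and 11.6 CPM in the injured libraries and 5.01, 7.16 and 8.24 CPM in the control libraries (log2 fold change 0.82 ± 0.17 (SE), adjusted p = 0.0243). Ivns1abp, a kelch-repeat gene whose product binds an influenza virus protein, was between 627 and 920.2 CPM (median 776) in the treated libraries, 688, 590.5 and 828 CPM in the injured libraries and 507, 424 and 449 CPM in the control libraries (log2 fold change 0.74 ± 0.13 (SE), adjusted p = 0.0104). The injured libraries lay within or near the treated range for all 3 genes. The Ras GTPase-activating gene Rasa2 had a log2 fold change of 0.68, the replication fork gene Radx 0.79, the spindle gene Haus6 0.79 and the Golgi-associated gene Glipr2 0.90. The zinc finger genes Zfp600, Zbtb25 and Zfp51 had log2 fold changes of 0.88, 0.76 and 0.69. Without control replicate 2 the adjusted p was 0.0578 for Arhgap26, 0.112 for Tlr1, 0.0844 for Ivns1abp, 0.16 for Rasa2, 0.121 for Radx, 0.16 for Haus6, 0.238 for Glipr2, 0.189 for Zfp600, 0.148 for Zbtb25 and 0.148 for Zfp51. Glipr2 and Zfp600 missed the threshold in 10 of the 12 fits that left out 1 library, Haus6 in 6, Zbtb25 in 4, Radx in 3, and Tlr1 and Zfp51 in 2.

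Some chaperone genes of the endoplasmic reticulum rose by small amounts, 0.33 to 0.44 log2 units. Proteins that enter the endoplasmic reticulum are folded there by chaperones, whose genes are switched on together when unfolded proteins build up, through the transcription factors ATF6 and XBP1 and a shared promoter motif, the ER stress response element (ERSE). Of 23 tested genes of the unfolded protein and stress response, 4 were called higher (Hspa5, Hsp90b1, Pdia4 and Creld2), beside 1.17% of all genes tested. None was called lower, and the list median was 0.03. Hyou1, a chaperone gene of the same compartment that was not in the list, was also called. The letters searched for ERSE were CCAAT and CCACG with any 9 bases between them, on both strands, in the 250 bases before each annotated start in RefSeq promoter windows of build GRCr8. They occurred in 22 of 33469 windows (0.0657%), among them those of Hspa5, Hsp90b1 and Creld2, while the Pdia4 window held a shorter form, CCAAT and CCAC with the same spacing, which overlaps every ERSE match and occurs in 97 windows (0.29%). The 4 windows are shown because these genes were called together, with the matches in capitals, read on the gene's strand. Hspa5 is at chr3:38452766-38453015 on the plus strand, Hsp90b1 at chr7:23012294-23012543 on the minus strand, Creld2 at chr7:121789134-121789383 on the plus strand and Pdia4 at chr4:78153192-78153441 on the minus strand.
Hspa5: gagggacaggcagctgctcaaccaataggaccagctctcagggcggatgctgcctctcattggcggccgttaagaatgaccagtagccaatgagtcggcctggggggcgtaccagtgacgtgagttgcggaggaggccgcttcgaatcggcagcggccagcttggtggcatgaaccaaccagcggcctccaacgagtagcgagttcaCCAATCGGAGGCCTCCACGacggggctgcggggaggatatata
Hsp90b1: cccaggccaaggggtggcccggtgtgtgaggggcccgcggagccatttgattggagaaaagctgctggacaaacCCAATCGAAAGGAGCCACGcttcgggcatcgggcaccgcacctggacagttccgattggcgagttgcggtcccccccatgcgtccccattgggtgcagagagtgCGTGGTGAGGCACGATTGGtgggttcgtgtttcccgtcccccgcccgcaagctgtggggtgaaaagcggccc
Creld2: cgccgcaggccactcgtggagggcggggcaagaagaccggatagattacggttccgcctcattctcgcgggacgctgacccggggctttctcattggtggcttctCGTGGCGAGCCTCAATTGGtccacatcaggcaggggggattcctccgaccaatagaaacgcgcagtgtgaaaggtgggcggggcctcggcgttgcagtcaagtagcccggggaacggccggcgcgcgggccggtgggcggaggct
Pdia4: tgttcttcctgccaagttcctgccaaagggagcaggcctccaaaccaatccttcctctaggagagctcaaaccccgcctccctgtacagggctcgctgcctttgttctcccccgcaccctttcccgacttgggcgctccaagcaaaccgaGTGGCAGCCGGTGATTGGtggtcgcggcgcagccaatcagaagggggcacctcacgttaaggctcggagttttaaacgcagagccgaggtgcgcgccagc
A match describes these letters only. Of 24 genes looked up (the 23 tested list members and Hyou1), 21 had a window, 6 held the full ERSE and 8 the shorter form; the others with the full ERSE were Xbp1, Calr and Canx, none of which was called in the fit of 15 libraries, and the 2 Hyou1 windows held neither.

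Hspa5 encodes BiP, the main ATP-dependent chaperone of the compartment. It was between 1149 and 1333 CPM (median 1256) in the treated libraries, 1106, 1083 and 1039 CPM in the injured libraries and 989, 912 and 919 CPM in the control libraries. Every treated library was above every injured and control library, with injured between. The log2 fold change was 0.39 ± 0.06 (SE) (adjusted p = 0.00792), and by dose 0.41 for HuMSC20, 0.39 for HuMSC50 and 0.36 for HuMSC125. Hyou1, a nucleotide exchange factor for BiP, was between 221 and 262 CPM (median 242) in the treated libraries, 209, 205 and 209 CPM in the injured libraries and 193, 166 and 171 CPM in the control libraries (log2 fold change 0.44 ± 0.07 (SE), adjusted p = 0.00724). Hsp90b1, the gene of the chaperone GRP94, was between 1514 and 1854 CPM (median 1674) in the treated libraries, 1569.9, 1379 and 1471 CPM in the injured libraries and 1335, 1224 and 1343 CPM in the control libraries (log2 fold change 0.35 ± 0.07 (SE), adjusted p = 0.0241). Its treated and control libraries did not overlap, and its injured libraries reached into the treated range. Pdia4, a disulfide isomerase gene, had a log2 fold change of 0.33 ± 0.07 (SE) (adjusted p = 0.0249), and Creld2, a secreted factor induced by endoplasmic reticulum stress, of 0.39 ± 0.08 (SE) (adjusted p = 0.0241). Without control replicate 2 the adjusted p was 0.0501 for Hspa5, 0.146 for Hsp90b1, 0.151 for Pdia4 and 0.106 for Creld2. Hsp90b1 and Pdia4 also missed the threshold without HuMSC50 replicate 3 (adjusted p = 0.0513 and 0.0546). Of the other chaperone and folding genes in the list, Calr, Canx, Pdia6, Sdf2l1 and Dnajb9 had log2 fold changes of 0.18, 0.19, 0.03, -0.05 and 0.15 and were not called. The stress-arm genes Ddit3 and Atf4 had log2 fold changes of 0.03 and -0.02 and were not called.

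The chaperone rise differed between the 2 P12 experiments. The intranasal run was sequenced separately, with its own 9 treated, 3 injured and 3 control libraries. In a fit of all 30 libraries, the treated minus control value differed between the runs for 18 of 14362 genes tested (0.125%), 16 with a higher (0.111%) and 2 with a lower value (0.0139%) in the intravenous run, and 1837 had an unadjusted p under 0.05. The values below are from that joint fit. For Hspa5 the log2 fold change was 0.41 in the intravenous and -0.24 in the intranasal run, a difference of 0.65 ± 0.11 (SE, adjusted p = 0.011). For Hyou1 it was 0.46 in the intravenous and -0.18 in the intranasal run (difference 0.64 ± 0.09, adjusted p = 0.00289). For Hsp90b1 the values were 0.37 intravenous and -0.30 intranasal (difference 0.66 ± 0.10, adjusted p = 0.00289), and the gene was called in opposite directions within the runs. Pdia4 and Creld2 also differed, and so did Calr, a calcium-binding chaperone gene named here after its values were seen, with 0.20 intravenous and -0.35 intranasal. Xbp1 passed the threshold within the intravenous run in the joint fit (0.25, adjusted p = 0.0462) but not in the fit of 15 libraries, and its difference between runs missed it (adjusted p = 0.168). Of the 23 list members, 5 differed between the runs, all with a higher value in the intravenous one, and the list median of the difference was 0.15. Control levels differed between the runs as well. The median of Hspa5 was 1278 CPM in treated and 938 CPM in control libraries of the intravenous run, against 1006 and 1216 CPM intranasal. For Hyou1 the medians were 250 and 171 CPM intravenous and 211 and 236 CPM intranasal. For Hsp90b1 they were 1680 and 1336 CPM intravenous and 1242 and 1516 CPM intranasal. Route and run were confounded, so they cannot be told apart. Without every library of replicate number 1 the joint fit called 2 genes, 1 of them among the 18. Without number 2 or number 3 it called 0, with 1244 and 1014 genes at an unadjusted p under 0.05, and DESeq2 on all libraries called 101.

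**Figure D4:**
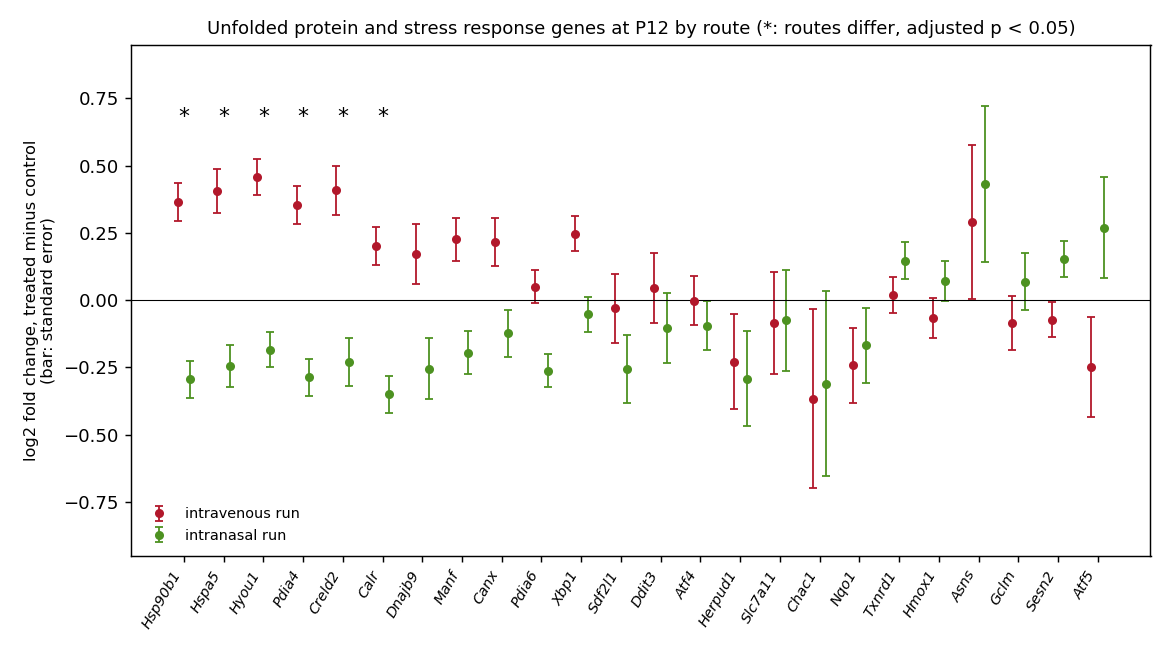
Log2 fold change, treated minus control, with its standard error for 23 unfolded protein and stress response genes and Hyou1 in the intravenous run (red, left of each pair) and the intranasal run (green), ordered by the difference. Stars mark the 6 genes whose difference between runs had an adjusted p under 0.05, all of them above 0 in the intravenous and below 0 in the intranasal run.

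A few genes of sterol metabolism rose, and a few target genes of liver X receptors fell. Cells make cholesterol under the control of SREBP2 when sterols are low, and export it under the control of liver X receptors (LXR) when sterols are high. Of 25 cholesterol synthesis and uptake genes, 3 were called higher, Insig1 among them, beside 1.17% of all genes tested. None was called lower, and the list median was 0.08. By dose against control, that median was 0.16 for HuMSC20, -0.03 for HuMSC50 and 0.16 for HuMSC125. At HuMSC50 edgeR called 1 member higher and 1 lower, beside 1.09% and 1.69% of all genes. At HuMSC125 it called 2 higher, beside 0.0937% of all genes. Insig1, which retains the SREBP complex in the endoplasmic reticulum, was between 29.4 and 34.5 CPM (median 32.8) in the treated libraries, 25.2, 23.6 and 29.1 CPM in the injured libraries and 22.4, 23.6 and 25.2 CPM in the control libraries. All treated libraries lay above all others, and the log2 fold change was 0.45 ± 0.07 (SE) (adjusted p = 0.00954). Of 17 LXR target and lipid efflux genes, 3 were called lower, beside 1.32% of all genes tested, and none higher, with a list median of -0.15. They were the sterol exporter gene Abcg1 (-0.58 ± 0.13 (SE)), the desaturase gene Scd (-0.68 ± 0.15 (SE)) and the ubiquitin ligase gene Mylip (-0.23 ± 0.05 (SE)). Without control replicate 2 the adjusted p was 0.0619 for Insig1, 0.242 for Abcg1, 0.183 for Scd and 0.125 for Mylip. Abcg1 missed the threshold in 5, Scd in 6 and Mylip in 9 of the 12 fits that left out 1 library.

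Of 23 homeostatic microglia genes, 3 were called higher, beside 1.17% of all genes tested, and none lower (median 0.03). Sall1, a transcription factor gene that marks microglial identity, was between 1275 and 1524 CPM (median 1376) in the treated libraries, 1290.0, 1254 and 1349 CPM in the injured libraries and 1182, 1037 and 1118 CPM in the control libraries (log2 fold change 0.32 ± 0.06 (SE), adjusted p = 0.0161, and 0.105 without control replicate 2). P2ry13, a purinergic receptor gene, had a log2 fold change of 0.35 ± 0.08 (SE) (adjusted p = 0.0427), and the third was Tgfbr1, described above. The purinergic receptor gene P2ry12 (0.15 ± 0.09 (SE), adjusted p = 0.379) and the fractalkine receptor gene Cx3cr1 (0.06 ± 0.07 (SE), adjusted p = 0.679) were not called. Tmem119, a microglial surface marker gene, was between 443 and 1313 CPM (median 676) in the treated libraries, 589, 739 and 666 CPM in the injured libraries and 349, 458 and 400.3 CPM in the control libraries. Its treated libraries spread widely and overlapped the controls (log2 fold change 0.81 ± 0.25 (SE), adjusted p = 0.0898). P2ry13 missed the threshold in 8 of the 12 fits, and its adjusted p was 0.214 in the fit without control replicate 2. In treated minus control DESeq2 called 3 members of the list higher and 2 lower. By dose against control, edgeR called 1 member lower at HuMSC50 (list median -0.05), beside 1.69% of all genes. It called 1 member higher at HuMSC125 (list median 0.01), beside 0.0937% of all genes.

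Genes of disease-associated and axon-tract microglia, a phagocytic state found near damage and in early white matter, leaned downward. Of 31 tested, 2 were called lower (Cd63 and Ctsb), beside 1.32% of all genes tested, none higher, and 27 had a negative log2 fold change, with a median of -0.22. Their summed level was 16675 to 21822 CPM in treated, 19522 to 19631 CPM in injured and 21109 to 24178 CPM in control libraries. Their mean level was 6.89 to 7.36 log2 CPM in treated, 7.15 to 7.24 in injured and 7.19 to 7.36 in control libraries, with overlap. By dose against control, the list median was -0.10 for HuMSC20, -0.29 for HuMSC50 and -0.17 for HuMSC125. List members move together within a library, so their shared direction is not a count of separate observations. The cathepsin B gene Ctsb was between 3969 and 4832 CPM (median 4594) in the treated libraries, 4912, 4533 and 4482 CPM in the injured libraries and 5267, 5551 and 5526 CPM in the control libraries (log2 fold change -0.27 ± 0.07 (SE), adjusted p = 0.0475). The tetraspanin gene Cd63 had a log2 fold change of -0.39 ± 0.09 (SE) (adjusted p = 0.0427). Ctsb missed the threshold in 9 and Cd63 in 8 of the 12 fits, with adjusted p values of 0.274 and 0.282 without control replicate 2. Apoe, the lipid carrier gene, had -0.48 ± 0.13 (SE) (adjusted p = 0.0624). Spp1 (-0.35 ± 0.35 (SE)), Lgals3 (-0.16 ± 0.11 (SE)) and Igf1 (0.28 ± 0.14 (SE)) were not called. Of 28 complement and phagocytosis genes, C1r alone was called, lower by 0.31 log2 units (adjusted p = 0.0467, lost in 10 of the 12 fits, among them the fit without control replicate 2 at 0.189), and the list median was -0.14. That single edgeR call, beside 1.32% of all genes called lower, describes C1r and not the list. Of the 28 genes, 22 had a negative log2 fold change and 9 an unadjusted p under 0.05, against 2955 of all 13874 genes. DESeq2 called 3 of them, all lower, against 348 called lower of all genes. At HuMSC50 against control edgeR called 4 lower, beside 1.69% of all genes.

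**Figure D5:**
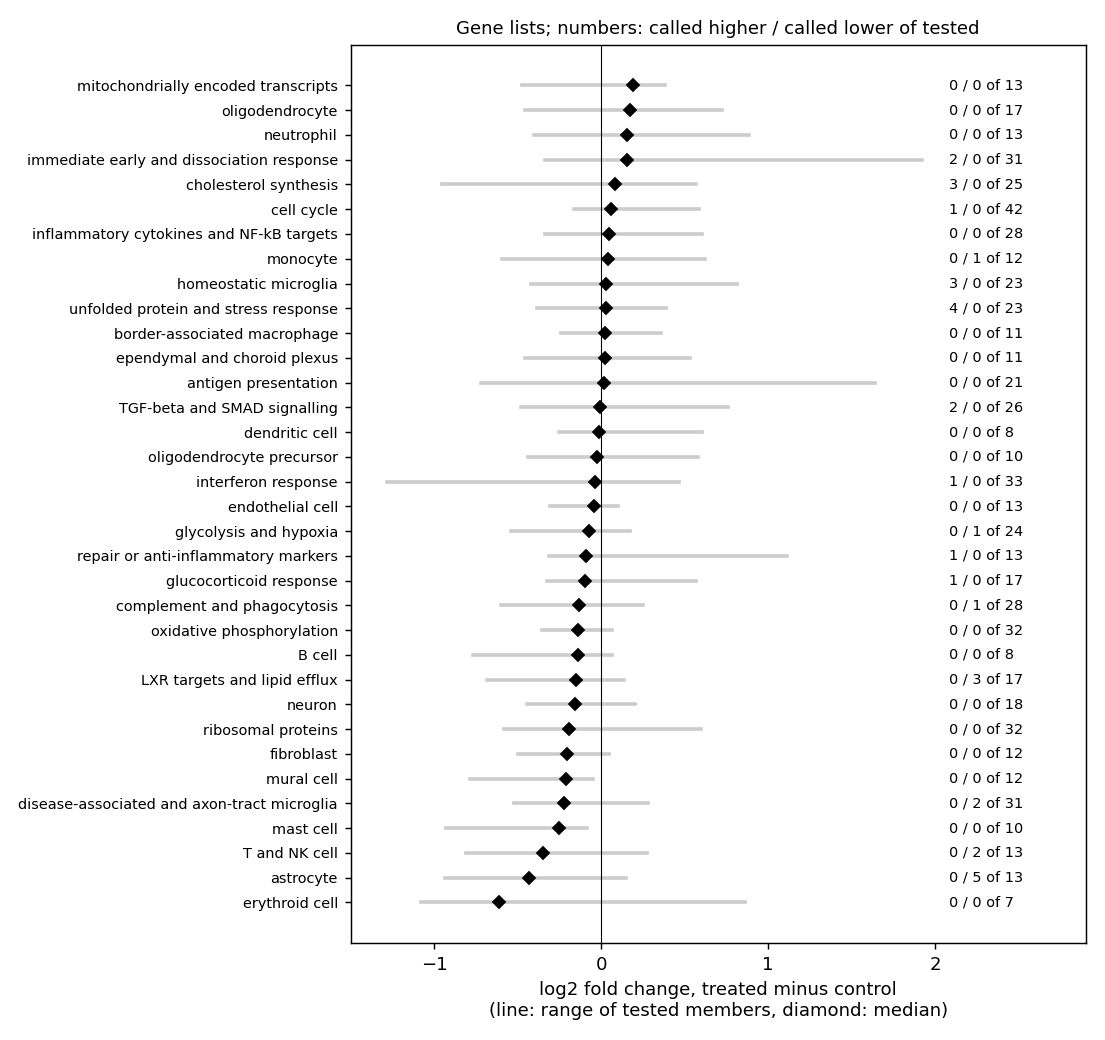
Each row is 1 of 34 gene lists, with the median (diamond) and range (grey line) of the log2 fold change, treated minus control, over its tested members, ordered by the median. The numbers at right give the members called higher and lower of those tested, which are 0 and 5 of 13 for astrocyte, 4 and 0 of 23 for the unfolded protein response and 0 and 0 of 28 for inflammatory cytokines and NF-kB targets. Of all genes tested, 1.17% were called higher and 1.32% lower.

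In treated minus control, edgeR called no gene of the inflammatory list (5 of 28 at an unadjusted p under 0.05, 1 called by DESeq2). The same held for the antigen presentation list (9 of 21 and 1 by DESeq2). At HuMSC50 against control, edgeR called 1 inflammatory gene lower, and antigen presentation genes 1 higher and 3 lower. Of all genes at that dose, 1.09% were called higher and 1.69% lower. The 28 tested inflammatory cytokine and NF-kB target genes had log2 fold changes of -0.34 to 0.60, with a median of 0.05. The smallest p values in the list were those of the adhesion gene Icam1 (0.30 ± 0.10 (SE), adjusted p = 0.1) and the chemokine gene Ccl3 (-0.29 ± 0.10 (SE), adjusted p = 0.11). Ptgs2 (0.23 ± 0.21 (SE)), Socs3 (-0.20 ± 0.15 (SE)) and the mannose receptor gene Mrc1 (0.11 ± 0.10 (SE)) were among the genes not called. Tnf was listed at 0 in all 15 libraries and was not tested. The annotation behind the counts is not known here, so this 0 does not show whether the gene was expressed. Of 33 interferon response genes, Oasl2 alone was called. It was between 76.8 and 107 CPM (median 93.9) in the treated libraries, 93.2, 85.3 and 94.5 CPM in the injured libraries and 70.2, 62.2 and 72.9 CPM in the control libraries, so that injured libraries were as high as treated ones (log2 fold change 0.44 ± 0.08 (SE), adjusted p = 0.0175, and 0.137 without control replicate 2). Of 42 cell cycle genes, Cdc6, which loads the replicative helicase, was called higher, beside 1.17% of all genes tested. It was between 8.08 and 9.84 CPM (median 8.66) in the treated libraries, 9.85, 8.38 and 8.96 CPM in the injured libraries and 5.69, 6.41 and 5.49 CPM in the control libraries, again with injured and treated alike and above control (log2 fold change 0.59 ± 0.11 (SE), adjusted p = 0.0153). Mki67, the proliferation marker, had a log2 fold change of 0.27 ± 0.08 (SE) (adjusted p = 0.0969). Among 17 glucocorticoid response genes, Fkbp5, a steroid receptor co-chaperone, was called higher (0.36 ± 0.08 (SE), adjusted p = 0.0341, and 0.202 without control replicate 2, and lost in 5 of the 12 fits). Among the other blood cell lists, edgeR called no neutrophil, B cell, dendritic cell, mast cell or erythroid marker (2 of 13, 2 of 8, 0 of 8, 1 of 10 and 0 of 7 at an unadjusted p under 0.05, with 1 B cell and 1 mast cell marker called by DESeq2). Of 12 monocyte markers Ly6e alone was lower (-0.59 ± 0.13 (SE), adjusted p = 0.0258, lost in 4 of the 12 fits, and 0.156 without control replicate 2). Of all genes tested, 1.17% were called higher and 1.32% lower. The single edgeR calls in the interferon, cell cycle, glucocorticoid and monocyte lists describe those genes and not the lists. Of the 42 cell cycle genes, 30 had a positive log2 fold change and 13 an unadjusted p under 0.05, against 2955 of all 13874 genes. DESeq2 called 7 cell cycle genes, all higher, against 518 called higher of all genes. In the interferon, glucocorticoid and monocyte lists, 5 of 33, 4 of 17 and 2 of 12 had such an unadjusted p. DESeq2 called 1, 1 and 2 of them.

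Some broad classes of transcript leaned one way without any call by edgeR. Of 32 ribosomal protein genes 31 had a negative log2 fold change (median -0.19), of 32 oxidative phosphorylation genes 30 did (median -0.14), and of 13 mitochondrially encoded transcripts 11 had a positive one (median 0.19). At an unadjusted p under 0.05 were 17 ribosomal, 9 oxidative phosphorylation and 6 mitochondrially encoded genes, and DESeq2 called 2, 3 and 2 in the same order. The ribosomal protein genes summed to 14518 to 17449 CPM in treated, 15143 to 17508 CPM in injured and 15835 to 19805 CPM in control libraries. The members of such a list move together within a library, so their shared direction is not a count of separate observations.

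The 3 doses gave very different numbers of calls against the same controls, but few genes that differed among doses. HuMSC20 had 6 called genes (0.0432%), 4 higher (0.0288%) and 2 lower (0.0144%). HuMSC50 had 385 (2.77%), 151 higher (1.09%) and 234 lower (1.69%). HuMSC125 had 22 (0.159%), 13 higher (0.0937%) and 9 lower (0.0649%). Genes with an unadjusted p under 0.05 numbered 1659 for HuMSC20, 3318 for HuMSC50 and 2206 for HuMSC125, and all 3 comparisons use the same 3 control libraries. The joint test for differences among the doses called 1 gene of 13874 (0.00721%), AABR07044421.1, with 1395 genes at an unadjusted p under 0.05. That identifier, which has no annotated function here, had log2 fold changes against control of 0.14 for HuMSC20, -3.34 for HuMSC50 and -0.56 for HuMSC125. Over the 163 genes called higher in treated minus control, the median log2 fold change was 0.43 for HuMSC20, 0.49 for HuMSC50 and 0.44 for HuMSC125. Over the 183 called lower it was -0.44, -0.55 and -0.49 in the same order. These genes were chosen on the mean of the 3 doses against the same controls, so similar medians are built in and are no evidence that the doses act alike. The joint test called 0 genes without any 1 of the HuMSC20 libraries or without HuMSC50 replicate 2 or 3 (693 to 1686 genes at an unadjusted p under 0.05), 2 to 4 without the other treated libraries, and 153 by DESeq2. The counts of the single doses rested on single libraries. HuMSC20 had 49 calls without control replicate 1, 1 without control replicate 2, 2 without control replicate 3, 1 without its own replicate 1 and 15 without its own replicate 2. HuMSC50 had 1145 calls without control replicate 1, 27 without control replicate 2, 80 without its own replicate 1 and 2 without its own replicate 3. HuMSC125 had 136 calls without control replicate 1, 2 without control replicate 2, and 6, 2 and 1 without its own replicates 1, 2 and 3.

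The 6 genes called at the lowest dose were Mlc1, Hyou1, Spns2, Tbx1, Sh2b2 and AC134224.3. Spns2, which exports sphingosine 1-phosphate, was between 72.2 and 89.8 CPM (median 80.2) in the treated libraries, 73.7, 66.6 and 75.6 CPM in the injured libraries and 58.6, 64.1 and 60.9 CPM in the control libraries. Treated and control libraries did not overlap, and its log2 fold change against control was 0.45 for HuMSC20, 0.29 for HuMSC50 and 0.40 for HuMSC125. Sh2b2, an adaptor of receptor tyrosine kinases, was between 34.6 and 60.4 CPM (median 49.5) in the treated libraries, 35.95, 45.9 and 48.1 CPM in the injured libraries and 33.7, 37.2 and 31.5 CPM in the control libraries. It had log2 fold changes of 0.70 for HuMSC20, 0.14 for HuMSC50 and 0.57 for HuMSC125, and the joint test among doses gave an adjusted p of 0.182. Tbx1, a T-box transcription factor gene at very low level, was between 0.480 and 1.43 CPM (median 0.778) in the treated libraries, 0.788, 1.18 and 1.09 CPM in the injured libraries and 0.157, 0.202 and 0.0785 CPM in the control libraries. The treated and injured libraries lay above all controls. In treated minus control the adjusted p without control replicate 2 was 0.0651 for Sh2b2 and 0.0578 for Tbx1.

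Several of the largest changes at HuMSC50 were in genes that need caution. RT1-DOb (3.68), RT1-CE1 (-1.83) and RT1-A2 (-1.36) belong to the rat major histocompatibility complex, whose genes are polymorphic and have near-identical copies, so that their counts are uncertain. Cyp2d1, a cytochrome P450 gene with several close copies, was between 0.691 and 69.6 CPM (median 28.9) in the treated libraries, 31.7, 3.54 and 30.8 CPM in the injured libraries and 1.04, 0.404 and 0.628 CPM in the control libraries. High and low libraries occurred within the treated and within the injured group, and its log2 fold change at HuMSC50 was 5.30 ± 1.21 (SE). Kcnj13, a potassium channel gene of the choroid plexus, had a log2 fold change of 1.18 ± 0.29 (SE) at HuMSC50. The 11 ependymal and choroid plexus markers averaged 3.60 and 3.58 log2 CPM in HuMSC50 replicates 2 and 3, the 2 highest values of the 15 libraries. They averaged 2.84 in HuMSC50 replicate 1, 2.56 to 3.48 in injured libraries and 2.29 to 3.14 in controls. The part of choroid plexus cells in the Kcnj13 value was not tested. The other large HuMSC50 values were rises of Hspa1b (2.48), Sema3d (1.29) and Cdh1 (1.29) and falls of Fbxo2 (-1.60), Gdf15 (-1.55) and Calhm6 (-1.30). In treated minus control Sema3d and Gdf15 missed the threshold (adjusted p = 0.0678 and 0.122), and Cdh1, Calhm6 and Cyp2d1 were lost in 12, 6 and 3 of the 12 fits, with adjusted p values of 0.058, 0.3 and 0.189 without control replicate 2.

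Treated and injured pups shared the IL-1beta injections and differed in the cells. The direct comparison of treated with injured libraries called 4 genes (0.0288%), 1 higher (0.00721%) and 3 lower (0.0216%), with 1282 at an unadjusted p under 0.05. These were Mlc1 (-0.80 ± 0.08 (SE), adjusted p = 0.000615), AC134224.3 (-2.24) and P2rx4, which were lower, and Ctdspl2, which was higher. P2rx4, an ATP-gated channel gene of microglia, was between 93.1 and 115 CPM (median 105) in the treated libraries, 151, 192 and 152 CPM in the injured libraries and 108, 118 and 117 CPM in the control libraries. Its treated libraries overlapped the controls and the injured ones stood above both, with a log2 fold change, treated minus injured, of -0.66 ± 0.07 (SE) (adjusted p = 0.000906). Ctdspl2, a phosphatase gene, was between 50.2 and 73.1 CPM (median 62.2) in the treated libraries, 36.4, 33.7 and 38.3 CPM in the injured libraries and 54.1, 36.2 and 53.4 CPM in the control libraries, with injured below all treated libraries (treated minus injured 0.73 ± 0.10 (SE), adjusted p = 0.00788). The Ctdspl2 call was lost without any 1 of the 3 injured libraries (highest adjusted p 0.078), while those of Mlc1, AC134224.3 and P2rx4 held in all 17 alternatives run. The count was 8, 19 and 7 without HuMSC20 replicates 1, 2 and 3, 14 without HuMSC50 replicate 1, 16 without HuMSC125 replicate 3 and 7 without injured replicate 2. Injured minus control called 2 genes (0.0144%), Cd5 and Lag3, both lower, with 1208 genes at an unadjusted p under 0.05. Dropping injured replicate 1 or injured replicate 3 from that comparison gave 0 calls (985 and 756 genes at an unadjusted p under 0.05, and DESeq2 on all libraries called 29), dropping control replicate 3 gave 1, and dropping injured replicate 2 or control replicate 1 gave 6. Over the 163 rises of treated minus control, the median log2 fold change was 0.45 in that comparison, 0.17 in treated minus injured and 0.27 in injured minus control. Over the 183 falls it was -0.52, -0.14 and -0.26 in the same order. These 3 comparisons share libraries, and the first chose the genes, so the medians are descriptions only.

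The intranasal run at P12 used other animals and other controls, and its treated minus control comparison called 70 of 14362 genes (0.487%), 26 higher (0.181%) and 44 lower (0.306%). In this paragraph the intravenous calls and values are from the fit of 15 libraries. The intranasal ones and the differences between runs are from the fit of 30 libraries. Of the 346 genes called in the intravenous run, 226 (65.3%) had the same sign there, beside 55.5% of all 13838 genes tested in both. Called in both runs in the same direction were 8, namely Lag3, Dpp6, Grem1, Rnf167 and AC141102.1 (lower) and Tbx1, Mapk1ip1l and Arid3a (higher), of which Rnf167, AC141102.1, Mapk1ip1l and Arid3a are named after their values were seen. They are 2.31% of the intravenous and 11.4% of the intranasal calls. Lag3 fell by 0.81 log2 units in the intravenous and by 0.79 in the intranasal run, and Dpp6 by 1.21 and by 1.56 in the same order. Mlc1, the leading gene of the intravenous run, had a log2 fold change of -0.14 ± 0.12 (SE) in the intranasal one, with an adjusted p of 0.0587 for the difference between runs (-0.82 ± 0.18 (SE)). Il1rn had 0.14 ± 0.21 (SE) there, and the difference between runs (0.98 ± 0.28 (SE)) missed the threshold (adjusted p = 0.147).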

How the data were processed

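The authors deposited 1 table of raw read counts per gene for 32623 genes in all 90 libraries, per the file headers. Per the labels' protocols, polyA RNA was made into stranded libraries and sequenced as single reads. The submitters' processing notes name HTSeq 0.5.3, DESeq2 1.8.1, the aligner STAR 2.7.2d and SAMtools, without their order. The genome build and annotation of the counts are not given in the sources used here, and 643 genes carry a further symbol in the table, so genes were matched by the table's gene name. From these deposited counts, edgeR 4.0.16 (limma 3.58.1, R 4.3.3) fitted the 15 libraries of the run with 1 mean per group after filterByExpr (minimum count 10, minimum total count 15) and TMM normalization, which left 13874 genes. Treated minus control is the mean of the 3 dose means minus control. The quasi-likelihood test was adjusted by Benjamini-Hochberg over all genes tested at 0.05, and every adjusted p in the text is from edgeR. CPM values use the TMM library sizes. The differences between runs and all intranasal values are from a fit of the 30 libraries of both runs (14362 genes). Where calls were compared between the runs, the intravenous calls were those of the fit of 15 libraries. The members and gene lists were chosen with earlier results of these data known, and list counts are descriptions.

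Genes were named by rule: the 15 largest rises and falls among called, annotated genes with a mean of at least 1 log2 CPM and no overlap of treated and control libraries, up to 4 members of each list by p, a fixed set of microglial genes, the 5 largest rises and falls of each dose, and the 6 smallest p of the test among doses and of the difference between runs. Further list members and genes are named after their values were seen. Replicate libraries of a group had correlations of 0.979 to 0.993, and none were duplicates. Alternatives were RLE normalization, no low-count filter, robust dispersion, a replicate block, 12 libraries without the injured group, the treated libraries as 1 group, leaving out each library, and DESeq2 1.42.0. Some genes are not reported here. Promoter windows are RefSeq's, of build GRCr8.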

Additional observations from a re-analysis of the deposited data

Results flagged for a closer look

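The treated minus control value differed between the intravenous and the intranasal run at P12, by the interaction term of edgeR's quasi-likelihood test over 30 libraries, for 18 genes, which were marked for that reason. Route, sequencing run, animals and controls all differ between the 2 runs and cannot be told apart. The differences given here are log2 values, intravenous minus intranasal. The chaperone genes described above were among them, with 0.64 for Hyou1, 0.66 for Hsp90b1, 0.64 for Pdia4, 0.65 for Hspa5, 0.64 for Creld2 and 0.55 for Calr. Ivns1abp differed by 1.18 ± 0.18 (SE), with 0.76 in the intravenous and -0.42 in the intranasal run. Spns2 differed by 0.56 ± 0.11 (SE), with 0.40 intravenous and -0.16 intranasal. In the other direction, Swap70 differed by -0.43 ± 0.07 (SE), with -0.32 intravenous and 0.12 intranasal. Svbp, which encodes a small partner of the tubulin-modifying vasohibins, differed by -1.05 ± 0.18 (SE), with -0.58 intravenous and 0.47 intranasal.

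The myelin gene Mog differed by 1.66 ± 0.30 (SE). Mog had 0.47 in the intravenous and -1.19 in the intranasal run. It was not called within the intravenous run and was called lower within the intranasal run. The 17 tested oligodendrocyte markers had a median difference of 0.52, beside 0.01 over all genes tested.

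Also marked were Alox12 (0.46 ± 0.08), Taf1d (0.75 ± 0.14), Exoc6b (0.57 ± 0.11), Cpt1c (1.15 ± 0.23), AC097129.1 (0.80 ± 0.15) and RF01241 (2.48 ± 0.52), each with its SE. These were named after their values were seen. Without the libraries of replicate number 1, 1 of the 18 was still called, and without those of number 2 or number 3 none was.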

How the results depend on the processing

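The direction of the 69 called genes followed was the same under every alternative that was run for them, and 13 of them were called in all of these. Counts of calls moved much more. Treated minus control called 346 genes, 343 with RLE normalization, 347 with robust dispersion, 261 without the injured group, 449 without the low-count filter (68.6% higher, against 47.1% in the main count), 229 with the treated libraries as 1 group, 866 with DESeq2, and 26 to 749 when 1 library was left out (34.6% to 60.1% higher). Replicate numbers showed no clear pairing of the libraries. Over 30 same-numbered pairs the correlation of deviations was -0.18 to 0.31 (median 0.02), and 7 passed 0.1. Over 60 pairs with different numbers it was -0.28 to 0.35 (median 0.0008). With the replicate block, treated minus control called 555 genes, HuMSC20 15, HuMSC50 807, HuMSC125 54 and the test among doses 2. Without the low-count filter the count was 72 for HuMSC20, 116 for HuMSC125, 62 among doses, 30 for treated minus injured and 16 for injured minus control. Robust dispersion gave 0 among doses and 1 for injured minus control. Without the injured group HuMSC50 had 168 calls and HuMSC125 had 11. DESeq2 called 226 for HuMSC20, 1160 for HuMSC50, 289 for HuMSC125, 153 among doses, 60 for treated minus injured, 29 for injured minus control and 101 for the difference between runs. Leaving out 1 library gave 1 to 49 for HuMSC20, 2 to 1145 for HuMSC50, 1 to 136 for HuMSC125, 0 to 4 among doses, 3 to 19 for treated minus injured and 0 to 6 for injured minus control, and leaving out a replicate number gave 0 to 2 for the difference between runs. Cx3cr1, not called, changed sign without control replicate 2 (-0.011, adjusted p = 0.967 with edgeR) and lay between that value and 0.12 over all fits without 1 library. Fits without 1 library have fewer samples, and other causes of these shifts were not tested. With 3 control libraries, of which 1 stood apart on each leading component, the number of genes that differ is uncertain, and genes at low level such as Tbx1 rest on few counts.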
